A study of Homo sapiens with 18 samples.

Results

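*BEST3*, *ANO1*, *CACNG4* and *KCNAB2* are 4 ion channel genes out of the 26941 genes measured in a *SOX11* knockdown experiment. They were selected on the measured values themselves, as channel genes with a strong change after *SOX11* siRNA in 1 cell line: *BEST3* in REH, *ANO1* in 697, and *CACNG4* and *KCNAB2* in RCH-ACV. All 4 were found in the count tables. RNA was sequenced from 3 established B-cell precursor acute lymphoblastic leukemia lines: REH, which represents the *ETV6-RUNX1* (E/R) subtype, 697 and RCH-ACV. In each line, 3 samples received *SOX11* siRNA and 3 received control siRNA, both at 300 nM by nucleofection, and RNA was collected after 48 h, for 18 samples in all. The samples of a group were described as independent biological replicates of 1 established line. Expression of *SOX11*, a transcription factor of the SoxC family, was therefore lowered in cells that already carried it, and the E/R subtype was represented by a single line.

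Ion channels let charged particles cross a cell membrane, and many are built from pore-forming and accessory subunits. Bestrophins and anoctamins include chloride channels opened by calcium: BEST3 is a bestrophin, and ANO1, also called TMEM16A, is a calcium-activated chloride channel best known from epithelia and smooth muscle. CACNG4 belongs to the gamma subunits named after voltage-gated calcium channels, and it is also a transmembrane regulatory protein of AMPA-type glutamate receptors. KCNAB2 is the Kv beta-2 subunit, a cytoplasmic partner of the Kv1 pore-forming potassium channel subunits. In lymphocytes, the Kv1 subunit KCNA3 helps to set the membrane potential on which calcium entry depends.

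The genes lie on 4 chromosomes (GENCODE annotation lifted to hg19). *BEST3* spans chr12:70037140-70093256 on the minus strand and *ANO1* spans chr11:69832013-70035636 on the plus strand. *CACNG4* spans chr17:64960823-65029514 and *KCNAB2* spans chr1:6050987-6161253, both on the plus strand. Values were read from RefSeq transcripts NM_032735 (*BEST3*), NM_018043 (*ANO1*), NM_014405 (*CACNG4*) and NM_003636 (*KCNAB2*). Genes of the opposite strand overlap *ANO1* (*LINC02753* and *LINC02584*) and *KCNAB2* (*NPHP4*), and the strand setting of the counting was not given in the sources used here, so reads in the shared stretches cannot be assigned to 1 gene with certainty.

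Promoters are shown for *ANO1* and *KCNAB2*, the genes for which a promoter sequence was matched. The sequences are from RefSeq (GRCh38.p14), each with 250 bases before the transcript start in lower case and the first 50 transcribed bases in capitals, and 2 of the 4 genes were matched. For *ANO1* the window is chr11:69985657-69985956 on the plus strand, and for the first of 4 listed starts of *KCNAB2* it is chr1:5992426-5992725 on the plus strand.
ANO1: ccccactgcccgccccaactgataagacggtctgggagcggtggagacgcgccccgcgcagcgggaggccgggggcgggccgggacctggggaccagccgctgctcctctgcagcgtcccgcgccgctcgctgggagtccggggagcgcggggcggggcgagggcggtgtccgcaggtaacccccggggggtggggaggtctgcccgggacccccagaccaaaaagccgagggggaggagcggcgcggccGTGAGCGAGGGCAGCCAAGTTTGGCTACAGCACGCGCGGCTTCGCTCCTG
KCNAB2: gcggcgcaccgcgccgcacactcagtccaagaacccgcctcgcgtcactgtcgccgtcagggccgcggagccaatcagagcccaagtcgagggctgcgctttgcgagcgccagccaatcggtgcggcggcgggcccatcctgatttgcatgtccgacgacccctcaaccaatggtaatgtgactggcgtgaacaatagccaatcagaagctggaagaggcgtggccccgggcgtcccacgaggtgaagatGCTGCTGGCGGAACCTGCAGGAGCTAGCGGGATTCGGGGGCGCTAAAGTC
The windows are rich in G and C, with 76.0% in *ANO1* and between 63.0% and 67.7% in the 4 windows of *KCNAB2*. The letters ACAAAG and ACAATG, words often bound by SOX proteins, were searched on both strands and had 0 matches in these 5 windows. Only these words were searched, so the result does not show that the windows lack a SOX binding site. The printed *KCNAB2* window holds the letters AACAAT, which neither word covers. Among all 35116 promoters of this length, 16.1% held ACAAAG, 10.8% held ACAATG and 24.5% held at least 1 of them, so most promoters lack these letters too.

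Total counts per sample ranged from 7039594 to 16592492, and 3 counts corresponded to 0.181 to 0.426 CPM (counts scaled to library size), a limit that covers counting error only. *SOX11* was lower in every sample with its siRNA than in every control sample of the same line. In REH it held 96.0 ± 2.85 CPM in controls and 53.7 ± 6.83 CPM with siRNA. The corresponding means for 697 were 59.7 ± 0.492 and 31.9 ± 0.841 CPM, and those for RCH-ACV were 131 ± 5.79 and 82.5 ± 3.82 CPM (SD, n = 3). The siRNA level was 0.563, 0.530 and 0.627 of the control level in the fits of these 3 lines, so much of the message remained in these counts. The authors reported a stronger lowering, of mRNA by RT-qPCR and of protein by Western blot. Of 10 B-cell precursor markers, 9 in REH and 10 in 697 and RCH-ACV reached a mean of 1 CPM, while no T-cell, erythroid or epithelial marker did. Summed over 6 myeloid markers, REH controls held 15.1 to 17.1 CPM and REH siRNA samples 9.43 to 10.9 CPM, 697 samples 2.33 to 4.66 CPM and RCH-ACV samples 23.6 to 31.2 CPM. The B-cell precursor sum lay between 5250 and 5654 CPM in 697 controls and between 4616 and 4831 CPM in 697 siRNA samples, while the groups overlapped in REH and RCH-ACV. The part of these differences in the REH and 697 results was not tested. Of 5 neuronal markers, 1 in REH and 2 in the other lines reached 1 CPM, with sums of 8.90 to 10.1 CPM in REH and 106 to 138 CPM in 697 and RCH-ACV. In bulk RNA, fewer cells expressing a gene and less RNA per cell cannot be told apart.

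*BEST3* was abundant in REH and nearly absent from RCH-ACV. In REH, the 3 control samples held 115, 103 and 94.2 CPM, and the 3 *SOX11* siRNA samples held 156, 153 and 155 CPM. Every siRNA sample was above every control, and the siRNA samples lay within a few CPM of each other. The means were 104 ± 10.4 and 155 ± 1.33 CPM (SD, n = 3), a log2 fold change of 0.57 with a standard error of 0.05, which is the difference that selected the gene and is given as a description. In 697, control samples held 5.07, 3.06 and 3.94 CPM and siRNA samples 4.99, 3.84 and 6.11 CPM. These groups overlapped, and the log2 fold change was 0.28 with a 95% interval of -0.24 to 0.81 (Benjamini-Hochberg adjusted p = 0.870, quasi-likelihood test of edgeR). The interval takes in 0 and the REH value, so the data leave that difference undecided, and the value ran from 0.11 to 0.49 with single samples left out. In RCH-ACV the control samples held 0, 0 and 1 counts of *BEST3* and the siRNA samples 3, 4 and 1, too few for a test.

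*ANO1*, which stayed at or below 25.9 CPM in every sample, was higher with *SOX11* siRNA in 697 and RCH-ACV. The 697 control samples held 13.1, 11.8 and 11.4 CPM and the 697 siRNA samples 25.9, 21.8 and 24.2 CPM. The groups were far apart, with means of 12.1 ± 0.896 and 23.9 ± 2.05 CPM (SD, n = 3) and a log2 fold change of 0.97 (SE 0.11), the change that selected *ANO1*. RCH-ACV was not the line named in that choice, but *ANO1* entered the RCH-ACV test mainly through its siRNA samples, the higher group. Its values in RCH-ACV are therefore given as a description. There, control samples held 1.48, 0.519 and 1.40 CPM (13, 4 and 12 counts) and siRNA samples 2.78, 3.97 and 2.62 CPM (22, 66 and 24 counts). The groups did not overlap, and *ANO1* rose by a log2 fold change of 1.50 (SE 0.31, 95% interval 0.84 to 2.16, adjusted p = 0.00667 by edgeR's quasi-likelihood test). This call rested on single libraries: it was lost without *SOX11* siRNA replicate 2, the most deeply sequenced sample of the series (log2 fold change 1.21, adjusted p = 0.0818), and without control replicate 2 (1.19, adjusted p = 0.0526). In REH, *ANO1* held 7.25, 6.10 and 5.54 CPM in controls and 7.42, 7.34 and 10.2 CPM with *SOX11* siRNA. The lowest siRNA sample was just above the highest control, and the log2 fold change of 0.42 (95% interval 0.10 to 0.74) did not pass the test (edgeR adjusted p = 0.146).

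*CACNG4* was absent from the counts of REH and was lower after *SOX11* siRNA in 697 and RCH-ACV. All 6 REH samples held 0 counts. In RCH-ACV, control samples held 46.0, 46.7 and 46.9 CPM and siRNA samples 24.1, 25.0 and 29.6 CPM, so that the controls differed from each other by less than 1 CPM and every siRNA sample was far below them. The means of 46.5 ± 0.463 and 26.2 ± 2.93 CPM (SD, n = 3) gave a log2 fold change of -0.84 (SE 0.08), which selected the gene. In 697, which was not the line named in that choice, control samples held 70.0, 70.8 and 73.8 CPM and siRNA samples 54.8, 54.0 and 50.2 CPM. *CACNG4* fell by 0.44 on the log2 scale in 697 (SE 0.07, 95% interval -0.60 to -0.29, edgeR adjusted p = 0.0226), with no overlap between the groups. The size changed little when single samples were left out (-0.47 to -0.40), but the call was lost in 5 of 6 such fits, without *SOX11* siRNA replicate 1 (adjusted p = 0.111), 2 (adjusted p = 0.116) or 3 (adjusted p = 0.0691) or control replicate 2 (adjusted p = 0.118) or 3 (adjusted p = 0.100).

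*KCNAB2* was present in all 3 lines and was the most abundant of the 4 genes in RCH-ACV. Its RCH-ACV control samples held 102, 95.2 and 94.7 CPM, and the siRNA samples held 175, 185 and 149 CPM. All siRNA samples were above all controls, with means of 97.2 ± 3.85 and 170 ± 18.6 CPM (SD, n = 3) and a log2 fold change of 0.81 (SE 0.07), which selected *KCNAB2*. In 697 the control samples held 69.5, 74.4 and 72.9 CPM and the siRNA samples 114, 97.9 and 106 CPM. Here too the groups did not overlap, and *KCNAB2* rose by a log2 fold change of 0.54 (SE 0.07, 95% interval 0.38 to 0.70, edgeR adjusted p = 0.00719), a call that was lost without *SOX11* siRNA replicate 1 (0.49, adjusted p = 0.0560). In REH, control samples held 15.0, 18.2 and 19.3 CPM and siRNA samples 20.6, 20.7 and 18.7 CPM. These groups overlapped and the log2 fold change was 0.21 (95% interval 0.00 to 0.41, edgeR adjusted p = 0.286).

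**Figure D1:**
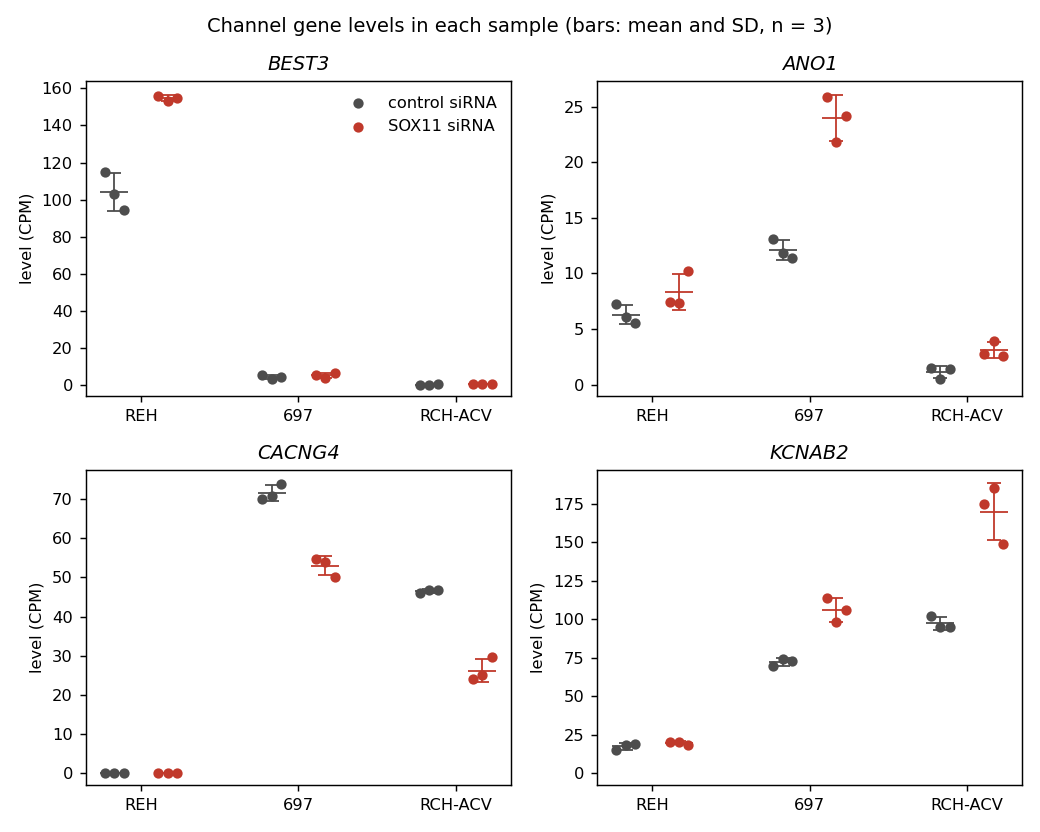
Level of each gene in CPM (y axis) in the 18 samples, by cell line (x axis), with control siRNA in grey and SOX11 siRNA in red; points are samples and bars give the mean and SD of 3. BEST3 stands at about 104 and 155 CPM in REH and near 0 in RCH-ACV, CACNG4 is at 0 in REH and lower with SOX11 siRNA in 697 and RCH-ACV, and ANO1 and KCNAB2 are higher with SOX11 siRNA in both of those lines.

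In 697, *CACNG4* and *KCNAB2* passed an adjusted p of 0.05, as 2 of the 3 genes tested there that 697 had not selected, against 0.559% of all 12169 genes tested in 697. In RCH-ACV, where 7.66% of 12963 genes passed, *ANO1* was the only such gene tested. It entered that test mainly through its siRNA samples, the higher group, and is a description as well. In REH, 0 of the 2 genes tested passed, at an unadjusted p of 0.0132 for *ANO1* and 0.0467 for *KCNAB2* (edgeR), and 4.65% of 12787 genes passed. Groups that did not overlap in CPM were seen for *CACNG4* and *KCNAB2* in 697 (12.6% of all genes), *ANO1* in RCH-ACV (25.8% of all genes) and *ANO1* in REH (21.5% of all genes). A change in a single line is thus not what these values show for *CACNG4* and *KCNAB2*, which had the same direction in 697 and in RCH-ACV, lines that share no samples, though the 697 calls depended on single samples as given above.

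**Figure D2:**
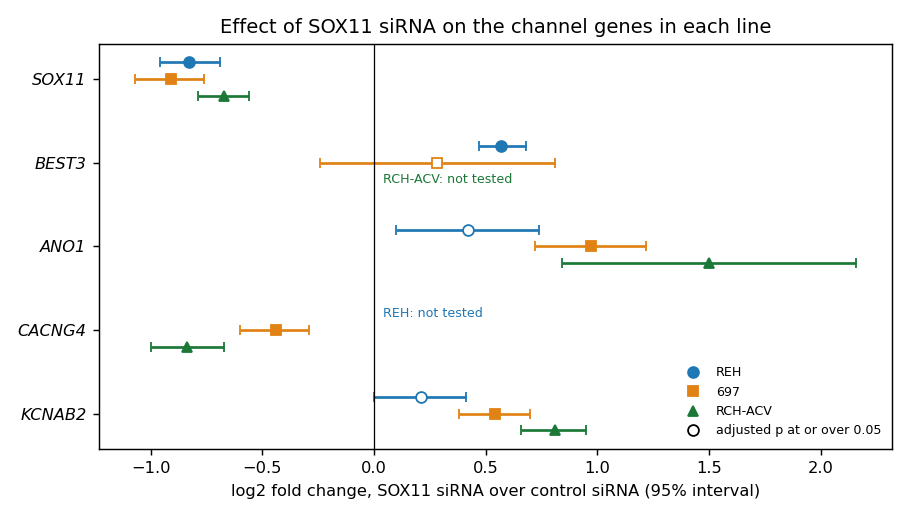
Log2 fold change of SOX11 siRNA over control siRNA (x axis) for SOX11 and the 4 channel genes (y axis) in REH (circles), 697 (squares) and RCH-ACV (triangles), with 95% intervals from edgeR; open symbols have an adjusted p of 0.05 or more. The intervals of ANO1, CACNG4 and KCNAB2 lie on 1 side of 0 in 697 and RCH-ACV. The point that selected each gene (BEST3 in REH, ANO1 in 697, CACNG4 and KCNAB2 in RCH-ACV) is a description only. So is ANO1 in RCH-ACV, which entered the test mainly through its siRNA samples.

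Whether the effect itself differed between the lines was tested with an interaction of siRNA and cell line over the 18 samples, which 0.727% of 14026 genes passed. It uses the values that selected each gene and, for *CACNG4* and *BEST3*, a line with no or almost no counts (REH and RCH-ACV), so its values are given as a description. None of the 4 genes passed it (edgeR's quasi-likelihood test): the adjusted p was 0.749 for *BEST3*, 0.278 for *ANO1*, 0.194 for *CACNG4* and 0.0635 for *KCNAB2*, with unadjusted values of 0.220, 0.00978, 0.00418 and 5.60e-04. *KCNAB2* passed it with no filter on low counts (adjusted p = 0.0288), without REH control replicate 1 (adjusted p = 0.0359), without 697 control replicate 1 (adjusted p = 0.0321) and without RCH-ACV *SOX11* siRNA replicate 3 (adjusted p = 0.00372). *CACNG4* passed it only without that RCH-ACV sample (adjusted p = 0.0382). A difference in effect between the lines was thus not shown for these genes, and the filter or a single sample decided the call for *KCNAB2*.

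RCH-ACV *SOX11* siRNA replicate 3 was the sample whose removal changed the number of called genes most in that line. It had the highest *SOX11* of the 3 siRNA samples (86.7 CPM against 81.6 and 79.2 CPM), a small gap for a group SD of 3.82 CPM. It was also the siRNA sample closest to the controls for *ANO1*, *CACNG4* and *KCNAB2*, by a small margin for *ANO1* (2.62 CPM against 2.78 CPM in replicate 1). Over all genes, 993 passed the test in RCH-ACV and 2522 did when this sample was left out. Without it the log2 fold changes in RCH-ACV were 1.62 for *ANO1*, -0.92 for *CACNG4* and 0.89 for *KCNAB2*. Whether the slightly higher *SOX11* level of this sample accounts for these values was not tested.

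The control samples show how differently the lines use these genes. In CPM per kb of the MANE Select transcript, *BEST3* led in REH with 30.5, ahead of *KCNAB2* (4.19), *ANO1* (1.32) and *CACNG4* (0). In 697, *CACNG4* (20.0) and *KCNAB2* (17.3) led, followed by *ANO1* (2.53) and *BEST3* (1.18), and in RCH-ACV the order was *KCNAB2* (23.3), *CACNG4* (13.0), *ANO1* (0.237) and *BEST3* (0.0113). The MANE Select transcript can differ from the transcript that was counted, so this scale is approximate between genes.

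Between lines, the order of *BEST3* control levels was REH, 697, RCH-ACV. It was 25.5-fold higher in REH than in 697, and the ratio of its pooled counts, each over the library totals, was 2751 (exact 95% counting interval 493 to 108699) between REH and RCH-ACV and 97.6 (17.1 to 3895) between 697 and RCH-ACV, where the lower group held 1 count. *ANO1* control levels followed the order 697, REH, RCH-ACV, with 697 1.91-fold above REH and REH 5.41-fold above RCH-ACV. For *CACNG4* the order was 697, RCH-ACV, REH: 697 was 1.53-fold above RCH-ACV, and against a floor of 3 counts over the REH control group, with pooled counts over library totals, the level was at least 678-fold higher in 697 and at least 462-fold higher in RCH-ACV. *KCNAB2* was 1.35-fold higher in RCH-ACV than in 697 and 4.15-fold higher in 697 than in REH. All 12 differences between control groups, 3 for each gene, had an adjusted p under 0.05 (edgeR, at most 1.91e-05), but so did 76.3% of 13686 genes between REH and 697, 73.9% between REH and RCH-ACV and 64.2% between RCH-ACV and 697. A difference between these lines was therefore the usual state of a gene. *CACNG4* (0 counts in REH controls) and *BEST3* (1 count in RCH-ACV controls) passed the filter through the lines where they are high. Their comparisons with those empty or nearly empty groups were fixed in part by this and are a description. The neuronal marker sums given above were also higher in 697 and RCH-ACV than in REH, as *CACNG4* and *KCNAB2* were, and their part in these levels was not tested.

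**Figure D3:**
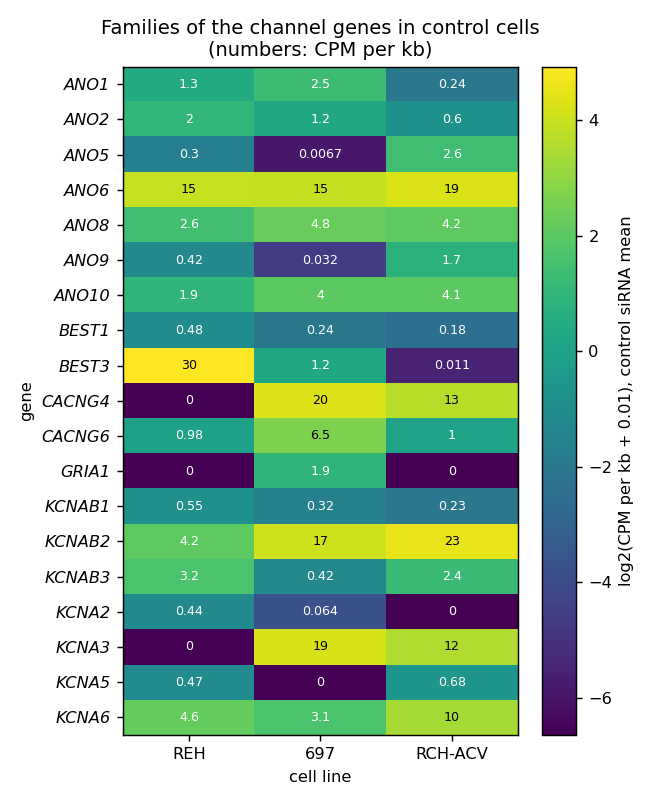
Mean control level of each family member that reached 1 CPM in at least 1 line (rows), in CPM per kb (numbers) and on a log2 scale with 0.01 added (colour), for the 3 lines (columns). BEST3 is the highest entry in REH (30.5 CPM per kb), and CACNG4, KCNAB2 and KCNA3 are high in 697 and RCH-ACV and low or at 0 in REH.

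Other members of the same families were described for context. Among 10 anoctamins, 7 in REH, 5 in 697 and 7 in RCH-ACV reached a mean of 1 CPM in controls. *ANO6*, a phospholipid scramblase as well as a channel, was the highest anoctamin in each line, at 92.3 ± 3.32, 91.4 ± 13.3 and 115 ± 6.12 CPM (REH, 697 and RCH-ACV controls, SD, n = 3), well above *ANO1*. *ANO2*, the closest relative of *ANO1* and a calcium-activated chloride channel of sensory neurons, was lower in 2 lines: it fell by 0.61 on the log2 scale in REH (SE 0.17, adjusted p = 0.0447) and by 1.36 in RCH-ACV (SE 0.37, adjusted p = 0.0300, edgeR), and its log2 fold change in 697 was -0.40 (adjusted p = 0.780). The *ANO2* levels in RCH-ACV were low, with 2.22 ± 0.283 CPM in controls and 0.955 ± 0.713 CPM with siRNA (SD, n = 3), from 85 counts in all. *ANO2* entered the RCH-ACV test mainly through its control samples, the higher group, so its values there are given as a description. *ANO9* rose in RCH-ACV, from 4.99 ± 0.836 to 7.98 ± 0.976 CPM (log2 fold change 0.71, edgeR adjusted p = 0.0140, SD, n = 3). Among 4 bestrophins, *BEST3* was the only one above 2 CPM in any line, and *BEST1*, the bestrophin of the retinal pigment epithelium, held 1.06 ± 0.381 CPM in REH controls (SD, n = 3).

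Among the 8 genes of the *CACNG* family, *CACNG4* and *CACNG6* were the ones that passed the filter on low counts. *CACNG6* held 16.4 ± 1.61 CPM in 697 controls and 2.54 ± 0.926 CPM in RCH-ACV controls (SD, n = 3), and its log2 fold changes there were 0.20 and 0.57, with adjusted p of 0.783 and 0.179 (edgeR). The pore-forming AMPA receptor genes, whose products CACNG4 can accompany, were almost silent: 1 of 4, *GRIA1*, reached 1 CPM, only in 697, with 10.6 ± 1.64 CPM in controls and 14.2 ± 0.883 CPM with *SOX11* siRNA (log2 fold change 0.40, edgeR adjusted p = 0.394, SD, n = 3). *GRIA1* held 0 counts in all REH and RCH-ACV samples, so the RCH-ACV cells in which *CACNG4* was lower had no detected partner of this kind except 1 count of *GRIA4*.

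Among the partners of *KCNAB2*, *KCNA3* was also higher in 697 and RCH-ACV than in REH. It held 0 counts in the REH controls, 46.0 CPM in 697 controls and 29.0 ± 1.78 CPM in RCH-ACV controls (SD, n = 3). *KCNA3* rose in RCH-ACV (log2 fold change 0.32, SE 0.09, edgeR adjusted p = 0.0325), and its value in 697 was 0.17 (adjusted p = 0.575). A second Kv1 subunit, *KCNA6*, fell in RCH-ACV from 41.8 ± 1.69 to 32.9 ± 5.67 CPM (log2 fold change -0.34, edgeR adjusted p = 0.0356, SD, n = 3). *KCNAB3*, the related beta subunit, rose there as *KCNAB2* did, from 6.81 ± 1.20 to 11.9 ± 1.20 CPM (0.77, SE 0.15, edgeR adjusted p = 0.00376, SD, n = 3).

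The wider channel repertoire was read from 8 lists with 245 channel genes, all of them in the tables. In REH, 93 were tested and 9 passed (9.68%, 4 higher and 5 lower, against 4.65% of all genes). In 697, 86 were tested and 3 passed (3.49%, against 0.559% of all genes), which were *ANO1*, the gene selected in 697, *CACNG4* and *KCNAB2*, so that 0 other channel genes passed. In RCH-ACV, 98 were tested and 18 passed (18.4%, 13 higher and 5 lower, 15 of them other than the genes described here, against 7.66% of all genes). The lists were drawn up with earlier results of these data known and were not tested as sets. As a description, the REH median log2 fold change over the lists was -0.034, the 697 median was -0.008 and that of RCH-ACV was 0.089, and the medians of all genes tested were -0.0023, -0.0035 and 0.0051.

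**Figure D4:**
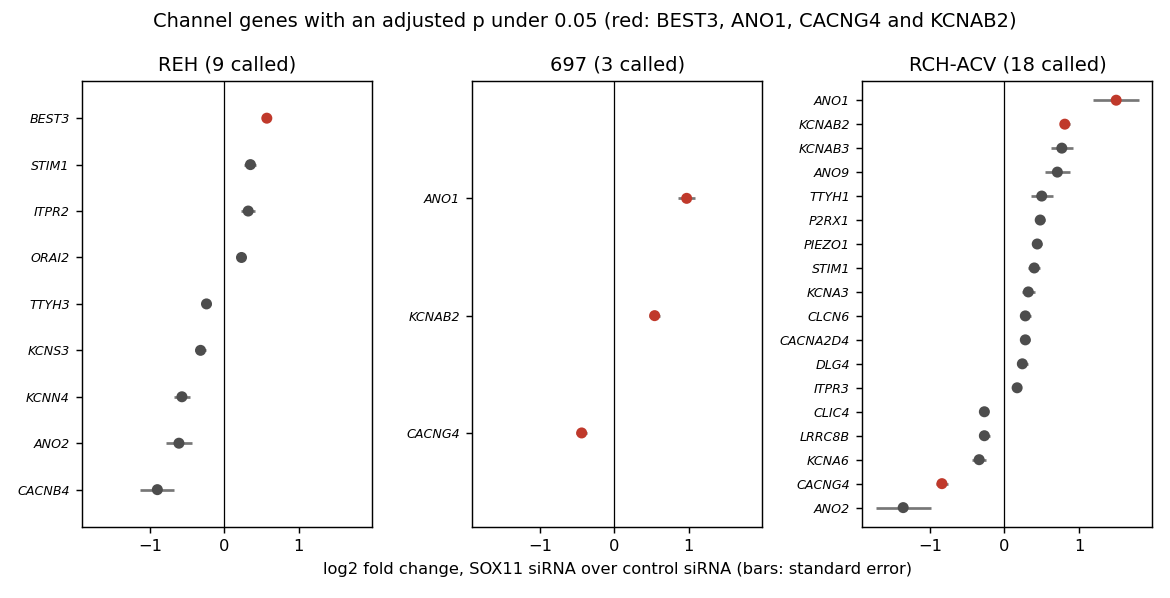
Log2 fold change of SOX11 siRNA over control siRNA (x axis, bars give the standard error) for each listed channel gene (y axis) with an adjusted p under 0.05 in REH, 697 and RCH-ACV. BEST3, ANO1, CACNG4 and KCNAB2 are in red. The 3 genes called in 697 are all red, and ANO1 (1.50) and ANO2 (-1.36) are the extremes in RCH-ACV. Both of these entered the RCH-ACV test mainly through their higher group and are a description only.

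In REH, 3 of 26 tested calcium entry genes were called, all higher (11.5%, against 4.65% of all genes), and the list median was 0.019. They were *STIM1*, the calcium sensor of the endoplasmic reticulum (log2 fold change 0.35), the inositol trisphosphate receptor *ITPR2* (0.32) and the store-operated channel subunit *ORAI2* (0.23). Those that fell in REH were *CACNB4*, a beta subunit of voltage-gated calcium channels (-0.90), *KCNN4*, the calcium-activated potassium channel of lymphocytes (-0.57), *KCNS3*, a silent Kv subunit (-0.32), and *TTYH3*, a member of the tweety family (-0.24). In RCH-ACV the same list of calcium entry genes had 4 of 26 called, all higher (15.4%, against 7.66% of all genes, list median 0.106): the ATP-gated channel *P2RX1* (0.48), the mechanically gated channel *PIEZO1* (0.44), *STIM1* (0.40) and *ITPR3* (0.17). The lysosomal or endosomal transporter *CLCN6* (0.28), the tweety gene *TTYH1* (0.50), the accessory calcium channel subunit *CACNA2D4* (0.28) and the scaffold gene *DLG4* (0.24) were also higher in RCH-ACV, and *CLIC4* (-0.27) and *LRRC8B*, a subunit of volume-regulated anion channels (-0.27), were lower. *STIM1* was called in both of these lines, and its log2 fold change in 697 was 0.32 (edgeR adjusted p = 0.539). None of these channel genes passed the interaction test either. Of these 23 calls of other channel genes, 7 held whichever sample was left out (*KCNN4* in REH, and *CACNA2D4*, *CLIC4*, *KCNAB3*, *P2RX1*, *PIEZO1* and *STIM1* in RCH-ACV), and the others, *ANO2*, *ANO9*, *KCNA3* and *KCNA6* among them, were lost in at least 1 such fit. With DESeq2, 14 of the 23 calls were lost: *ANO2* in both lines (adjusted p = 0.180 in REH and 0.113 in RCH-ACV), *CACNB4*, *STIM1* (0.0575), *ITPR2*, *KCNS3* and *TTYH3* in REH, and *ANO9*, *TTYH1*, *ITPR3*, *KCNA3* (0.0817), *KCNA6*, *CLCN6* and *DLG4* in RCH-ACV. In 697 the sodium channel, other chloride channel, other potassium channel, AMPA receptor and calcium entry lists had no called gene, in a line where 68 genes were called in all.

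*BEST3* has 7 RefSeq transcripts in the tables, *KCNAB2* 6, *ANO1* 2 and *CACNG4* 1. Overlapping transcripts hold the same reads, so each further transcript was expressed as a percentage of the counts on the transcript used above. Of 29 such shares that could be compared between siRNA and control samples, 4 did not overlap between the groups. All 4 were among the 6 *BEST3* shares in REH, where 8.66% of 15249 shares over all genes did not overlap, and they share reads with each other, so they are given as a description and not as 4 separate results. NM_001282616 stood at 19.0%, 17.1% and 18.6% of the NM_032735 counts in controls and at 21.0%, 21.6% and 21.5% with *SOX11* siRNA. NR_104220 stood at 9.34%, 9.78% and 9.44% in controls and 11.7%, 11.2% and 12.4% with siRNA. NM_001282615, which shares nearly all its reads with NM_001282616, held a mean of 21.1% with siRNA and was likewise higher in every siRNA sample. NM_001282613 went from a mean of 99.5% to 99.2%. The exact two-sided permutation p was 0.100 for each, the smallest that 3 samples against 3 can give, before any adjustment for the 29 comparisons. The first 3 shares were thus higher in each REH siRNA sample than in any REH control. In 697, where *BEST3* counts were between 21 and 54, the same shares ranged from 7.32% to 57.1% and overlapped.

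**Figure D5:**
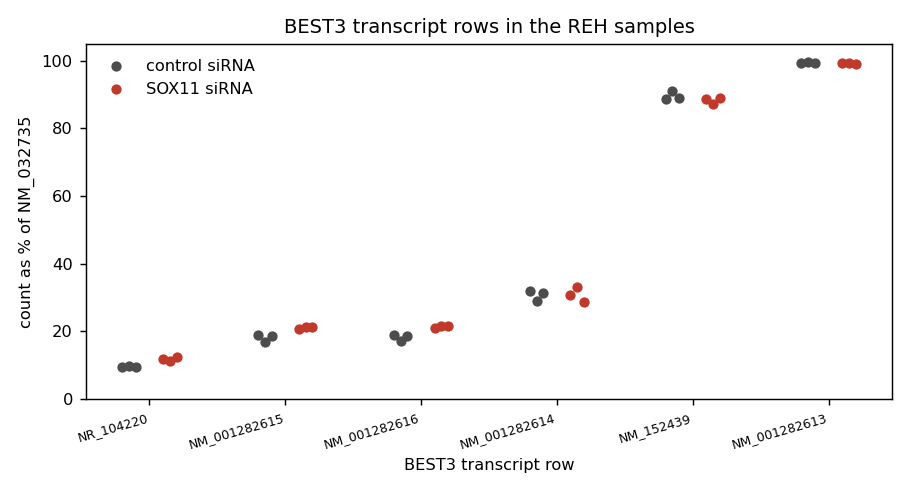
Counts of 6 BEST3 transcripts as a percentage of the counts of NM_032735 (y axis) in the 3 control (grey) and 3 SOX11 siRNA (red) samples of REH; each point is a sample. NR_104220, NM_001282615 and NM_001282616 are higher in all 3 siRNA samples (means of 9.52% and 11.8% for NR_104220), and NM_001282614 and NM_152439 overlap.

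Neighbours were the nearest genes on either side that were tested in the line that selected each channel gene. Closer genes that were not tested were passed over. No such neighbour passed the test in that line in the same direction as its channel gene. On either side of *BEST3* in REH, *CCT2* (41789 bases away) had a log2 fold change of -0.13 (edgeR adjusted p = 0.0251), opposite in sign to *BEST3* and lost in 5 of 6 fits that left out a sample, and *RAB3IP* (39383 bases away) had 0.20 (adjusted p = 0.0614). Next to *ANO1* in 697, *FADD* (13765 bases away) had -0.10 and *LTO1* (341828 bases away) had -0.23, with adjusted p of 0.901 and 0.840. Beside *CACNG4* in RCH-ACV, *PRKCA* (153961 bases away) had -0.16 and *HELZ* (37045 bases away) had 0.05, with adjusted p of 0.279 and 0.701. The overlapping gene *NPHP4* had 0.10 in RCH-ACV (adjusted p = 0.549), where *KCNAB2* had 0.81, and *RPL22* (83826 bases away) and *C1orf174* (2234129 bases away) had -0.02 and 0.08.

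The genes whose levels followed each gene most closely were found by Pearson correlation of log2 CPM over the 18 samples, among 13982 genes. Because the samples come in 3 lines of 6, these correlations mostly describe differences between lines and carry no p. *BEST3* was followed by *MYO18B*, *ERI2* and *CDKN2C* (r of 0.99 each), and *CDKN2C*, a cyclin-dependent kinase inhibitor, also rose in REH (log2 fold change 0.22, edgeR adjusted p = 0.00517). For *ANO1* the closest were *CD46*, a complement regulatory receptor, *DIPK1A* and *ANKRD26* (0.97, 0.96 and 0.96). *CACNG4* was followed by *DCLK2*, *LDLRAD3* and *POGLUT2* (1.00 each after rounding), of which *LDLRAD3* fell in 697 (-0.34, adjusted p = 0.0109, lost in 3 of 6 fits that left out a sample) and in RCH-ACV (-0.38, adjusted p = 4.23e-04, edgeR). *KCNAB2* was followed by *ZAP70* and *SLC29A1* (0.99 each), among others. *ZAP70*, a kinase of lymphocyte receptor signalling, rose from 50.5 to 81.2 CPM in RCH-ACV (0.69, edgeR adjusted p = 8.22e-05). *SLC29A1* did not pass there (0.18, edgeR adjusted p = 0.0704), nor did *POGLUT2* (-0.53, adjusted p = 0.0727). *ERI2* did not pass in REH (0.15, edgeR adjusted p = 0.185). *CD46*, *DIPK1A* and *ANKRD26* did not pass in 697, and *ANKRD26* passed in no line. *CD46* passed in REH (0.17, adjusted p = 0.0390) and in RCH-ACV (0.22, adjusted p = 0.0266), and *DIPK1A* in RCH-ACV (0.43, edgeR adjusted p = 0.0426). Each *CD46* call held in 2 of 6 fits that left out a sample, and the *DIPK1A* call in 1 of 6. *MYO18B* in REH and *DCLK2* in RCH-ACV passed, though not in every fit that left out a sample. The correlations included the siRNA samples, so a shared direction was partly built in.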

How the data were processed

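RNA-seq counts of 18 samples were used. The authors trimmed and quality-filtered reads, aligned them to hg19 with STAR (2.5.3a) and obtained counts per RefSeq transcript from HOMER. The authors deposited raw counts with no normalization in 1 table per cell line. The 4 genes and the gene lists were chosen with earlier results of these data known. Transcripts were matched to symbols (98.0% of transcripts, 99.0% of counts), and each gene was represented by its most counted transcript (sum of all 18 samples), so a change in transcript use is not seen in gene values. Differential expression was tested per line with the edgeR (4.0.16) quasi-likelihood F-test, TMM normalization and the edgeR filter on low counts, with an adjusted p (Benjamini-Hochberg over all genes tested) under 0.05 as the cut-off. Control groups were compared in 1 fit of 9 control samples, and the interaction was fitted over all 18. CPM used TMM over the 18 samples. The fits were tested on simulated data. Replicates were checked for repeated libraries and none was found: over 18 pairs, chi-square divided by its degrees of freedom was 1.30 to 5.18. Named genes were the 4 genes, *SOX11*, up to 10 called channel genes per line by size (the remaining called ones in RCH-ACV were named in addition), the 3 highest channel genes of a list, the nearest tested neighbours and the 3 genes most alike (1 of which is not reported here), and family members given with their values for context were named after those values were seen. Alternatives were RLE or library-size scaling, DESeq2 (1.42.0), the legacy quasi-likelihood method, other filters, a replicate block, other transcripts, a joint fit and leaving out each sample.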

Additional observations from a re-analysis of the deposited data

How the results depend on the processing

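The 22 fold changes of the 4 genes were refitted 340 times in all. They kept their sign each time and their side of the threshold in 330 fits. These fits include differences between control groups, values that selected a gene and values never called, so 330 does not measure how stable the other calls were. All exceptions fell on *ANO1* in RCH-ACV and on *CACNG4* and *KCNAB2* in 697, which had not selected the gene. With single samples left out, these calls held in 4 of 6, 1 of 6 and 5 of 6 fits. With the replicate number as a block, *CACNG4* in 697 stayed at -0.44 (adjusted p = 0.129) and *KCNAB2* in 697 at 0.54 (adjusted p = 0.0616), both past the threshold without the block. The numbers were not found to pair the samples: the correlations of same-numbered deviations in REH were -0.056, 0 and -0.029. Those of 697 were -0.247, 0.265 and -0.152, and those of RCH-ACV 0.016, -0.038 and -0.055. Leaving out single samples gave 1.19 to 1.74 for *ANO1* in RCH-ACV, -0.47 to -0.40 for *CACNG4* in 697 and 0.49 to 0.60 for *KCNAB2* in 697. The interaction's adjusted p for *KCNAB2* was 0.0288 with no filter and 0.00372 to 0.223 with a sample left out, and for *CACNG4* it was 0.0382 to 0.521 with a sample left out.

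The number of genes called moved more. In REH, 594 became 315 with DESeq2, 1493 with all transcripts kept apart, 241 in the fit over the 18 samples and 299 to 523 with a sample left out. In 697, 68 became 29 with the replicate block, 217 with all transcripts, 193 in the fit over the 18 samples and 25 to 71 with a sample left out. In RCH-ACV, 993 became 577 with DESeq2, 2620 with all transcripts and 386 to 2522 with a sample left out (386 without *SOX11* siRNA replicate 2, 2522 without replicate 3). The interaction's 102 became 45 with the replicate block and 57 to 185 with a sample left out. Keeping all transcripts counts a gene more than once. The causes of the other shifts were not tested. Other named genes kept their side of the threshold in 696 of 832 refits, and 131 calls were lost. The signs turned for *HELZ* (-0.05 to 0.13) and *RPL22* (-0.04 to 0.02) in RCH-ACV with a sample left out, where neither was called. At 1 count in the RCH-ACV controls, depth limits any statement on *BEST3* there.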
